A study of Caenorhabditis elegans with 9 samples.

Results

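ATF-4OE animals, *C. elegans* that carry extra *atf-4*, were compared with wild type (WT, strain N2) at the fourth larval stage (L4) by sequencing of poly(A) RNA from whole animals. The comparison rests on 6 of the 9 libraries of the study, 3 ATF-4OE and 3 WT, taken by their names in the deposited sheet of centred and scaled values. ATF-4OE animals carry *ldIs119*, in which the *atf-4* promoter drives genomic *atf-4* fused to GFP and followed by the 3′ end of the muscle myosin gene *unc-54*, together with the dominant marker *rol-6(su1006)*, a mutant cuticle collagen gene. It is 1 line, made by integrating 1 extrachromosomal array into the genome and outcrossed to N2, and no other line was sequenced. What the marker, the insertion or the strain contributed cannot be told apart from the action of ATF-4. N2 carries no transgene. Each library came from about 20000 animals grown at 20 °C on OP50 bacteria after an arrest at the first larval stage, with all strains of a replicate cultured side by side. The 3 libraries of the deletion mutant *atf-4(tm4397)* entered the estimate of the spread and the filter on low levels, which a gene passed with 5 ppm in any of the 9 libraries.

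The values of 4 of the 6 libraries stand under another genotype in the deposited RPKM sheet, which holds the same libraries in the same column order. With the names of that sheet no gene passed the test below (limma), and 213 of 11281 genes (1.89%) had an unadjusted p under 0.05, so every result here rests on the names of the former sheet. The authors' sheet of 39 most regulated genes, picked from these data, carries the same names for 6 of the 6 libraries. Depth, estimated from the steps between low RPKM values, was 24990000 to 28560000 reads in WT and 23860000 to 35150000 reads in ATF-4OE. Levels are given in ppm, parts of the sum of a library, which was set to 1000000. They derive from RPKM and are therefore per length, so that levels can also be compared between genes. The 3 values of a group are given in the order of replicates 1, 2 and 3, and means are given ± SD (n = 3). A gene rose or fell where limma gave an adjusted p under 0.1, and was called higher or lower where, in addition, the log2 fold change exceeded 1 in size. The genes *atf-4* and *rol-6*, whose RNA comes in part from the transgene, and the genes within 5 kb of either were left out. Whether the counting used strand is not given in the sources used here, so that reads of overlapping genes cannot be assigned with certainty. Besides the cases given below, this holds for *far-3*, *aagr-1*, *clec-3*, *col-103*, *srlf-1*, *act-4*, *ttr-7*, *nas-10*, *ptr-8*, *haf-4*, *aqp-1*, *nhr-114*, *tars-1* and *aex-5*, which overlap a protein-coding gene on the opposite strand.

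ATF-4 is a basic leucine zipper transcription factor and the worm counterpart of mammalian ATF4. It is the main effector of the integrated stress response, in which the cell lowers translation as a whole while the RNA of this factor is translated more. In mammals ATF4 turns on genes for amino acid uptake and synthesis, for the charging of tRNA and for glutathione metabolism.

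Among the 11281 genes tested, 2488 (22.1%) rose in ATF-4OE animals and 1629 (14.4%) fell. With the fold limit, 675 (5.98%) were called higher and 334 (2.96%) lower. The libraries of the 2 groups did not overlap for 5422 genes in either direction (48.1%). The median log2 fold change of all genes was 0.01 and the median standard error 0.17. The median WT level was 30.3 ppm for genes called lower, 6.26 ppm for genes called higher and 17 ppm for all genes. WT levels are 1 side of the comparison that made the calls, so the calls themselves in part set this order. Genes that fell made up 19.5 to 23.2% of the summed levels in the WT libraries and 11.3 to 13.3% in the ATF-4OE libraries. Genes that rose made up 8.79 to 9.89% and 15.7 to 17.1%. These shares are of genes picked by the same test and only describe how much RNA was involved. In bulk RNA of whole animals, fewer cells of a type and less RNA per cell cannot be told apart, for these genes and all that follow. Without ATF-4OE replicate 1 the counts were 1530 higher and 1021 lower, with 220 called lower, and without WT replicate 3 the count of lower genes was 1010.

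**Figure D1:**
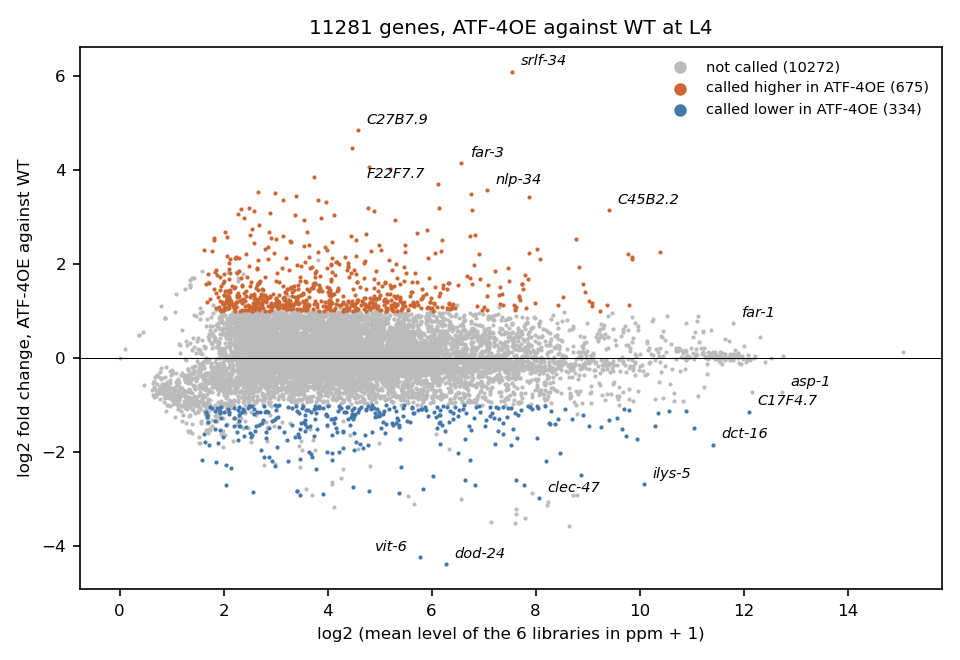
Log2 fold change of ATF-4OE against WT for each gene tested (vertical axis) against log2 of its mean level over the 6 libraries plus 1 (horizontal axis, ppm), with the 675 genes called higher, the 334 called lower and the others in separate colours. The largest rise is that of *srlf-34* at 6.10, and the points at or beyond a fall of 2.5 that are not coloured are genes whose WT libraries differ widely from each other.

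The largest rises by fold were at genes of low level in WT. *srlf-34*, at chromosome II 10312293 to 10312943 of WBcel235, was at 4.97, 4.76 and 3.36 ppm in WT and 432, 399.7 and 276 ppm in ATF-4OE (log2 fold change 6.10 ± 0.19 SE, adjusted p = 1.09e-06 by limma). It lies inside the guanylyl cyclase gene *gcy-5* on the opposite strand. *C27B7.9* on chromosome IV was at 0.643, 0.619 and 0.485 ppm in WT and 45.9, 56.8 and 34.1 ppm in ATF-4OE, a log2 fold change of 4.85. *Y49F6B.12* was at 0.950, 1.07 and 0.716 ppm in WT and 44.6, 37.5 and 41.8 ppm in ATF-4OE. For each of these 3 genes the lowest ATF-4OE library was many times the highest WT library.

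*far-3*, at chromosome V 12996787 to 12997522, encodes a secreted protein of the family that binds fatty acids and retinol. It was at 7.71, 5.83 and 15.6 ppm in WT and 213, 178 and 144 ppm in ATF-4OE (log2 fold change 4.15 ± 0.39 SE, adjusted p = 0.000353 by limma). *Y41G9A.10* on the X chromosome was at 2.69, 1.65 and 1.96 ppm in WT and 68.5, 44.6 and 41.6 ppm in ATF-4OE, and *fip-1*, whose name stands for fungus-induced protein, was at 1.63, 0.811 and 0 ppm in WT and 32.1, 22.5 and 17.5 ppm in ATF-4OE. The latter lies inside the potassium channel gene *twk-7* on the opposite strand, which also rose, from 3.06 ± 0.586 to 9.05 ± 1.59 ppm.

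*F22F7.7*, at chromosome V 2131473 to 2140042, is the worm counterpart of human CHAC1, an enzyme that breaks down glutathione. It was at 6.77, 11.5 and 8.88 ppm in WT and 128, 122 and 133 ppm in ATF-4OE (log2 fold change 3.71 ± 0.23 SE, adjusted p = 4.58e-05 by limma). The ATF-4OE libraries were nearly the same and the WT libraries all low. *suex-1* was listed at 0 in every WT library and was at 11.3, 11 and 9.7 ppm in ATF-4OE. The antibacterial peptide gene *cnc-4* was at 13.4, 15.2 and 21.7 ppm in WT and 210.5, 171 and 210.4 ppm in ATF-4OE, and *nlp-34*, another peptide gene of the skin, had a log2 fold change of 3.57. The remaining genes among the 12 with the largest rises were *C45B2.1*, described with its neighbours below, and the non-coding RNA gene *F29G9.14*, a short stretch inside *fos-1* on the opposite strand, which was at 0, 0.948 and 0 ppm in WT and 14.3, 10.5 and 15.9 ppm in ATF-4OE.

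The 12 largest falls by fold included those of 2 C-type lectin genes, an aspartyl protease gene and the yolk gene *vit-6*. *dod-24*, at chromosome IV 12940106 to 12941354, is a target downstream of the insulin pathway that also answers to bacteria. It was at 131, 109 and 196 ppm in WT and 3.98, 18.7 and 2.14 ppm in ATF-4OE (log2 fold change -4.40 ± 0.67 SE, adjusted p = 0.00236 by limma). ATF-4OE replicate 2 was the highest of its group and still far below WT. *clec-47* and *clec-3*, which encode C-type lectin domain proteins, were also highest in ATF-4OE replicate 2 within that group. *clec-47* was at 439, 371 and 587 ppm in WT and 28.5, 136 and 47.3 ppm in ATF-4OE, and *clec-3* at 20.3, 12.5 and 21.9 ppm in WT and 0.494, 3.76 and 1.14 ppm in ATF-4OE. *aagr-1*, related to acid alpha-glucosidase, was at 78.7, 52.9 and 84.3 ppm in WT and 5.75, 11.2 and 10.3 ppm in ATF-4OE (log2 fold change -2.87 ± 0.29 SE, adjusted p = 0.000522 by limma).

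The yolk gene *vit-6* was at 81.3, 9.02 and 226 ppm in WT and 1.15, 1.70 and 3.80 ppm in ATF-4OE (log2 fold change -4.24 ± 1.5 SE, adjusted p = 0.0643 by limma). WT replicate 2 was far below the other WT libraries, and the test was no longer passed with the replicate as a block (adjusted p = 0.117) or without any 1 of 5 libraries (0.151 without WT replicate 1, 0.205 without WT replicate 3, and 0.175, 0.130 and 0.111 without ATF-4OE replicates 1, 2 and 3). The aspartyl protease gene *asp-12* was at 54, 87.7 and 155 ppm in WT and 6.56, 17.8 and 15.1 ppm in ATF-4OE. *clc-24*, a claudin-like gene by its name, was at 17, 12.5 and 46.9 ppm in WT and 0.709, 6.07 and 1.38 ppm in ATF-4OE, and *F54B11.11* at 41.9, 40.0 and 59.8 ppm in WT and 3.13, 8.45 and 6.71 ppm in ATF-4OE. WT replicate 3 was the highest library for each of these 3 genes. *Y38H6C.23*, *F09C8.1* and *F55G11.2* had log2 fold changes of -2.82, -2.82 and -2.75. The piRNA locus *21ur-10653* had -2.85, but it is as short as a piRNA and lies inside *H06H21.8* on the opposite strand, so its reads can belong to a longer RNA.

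**Figure D2:**
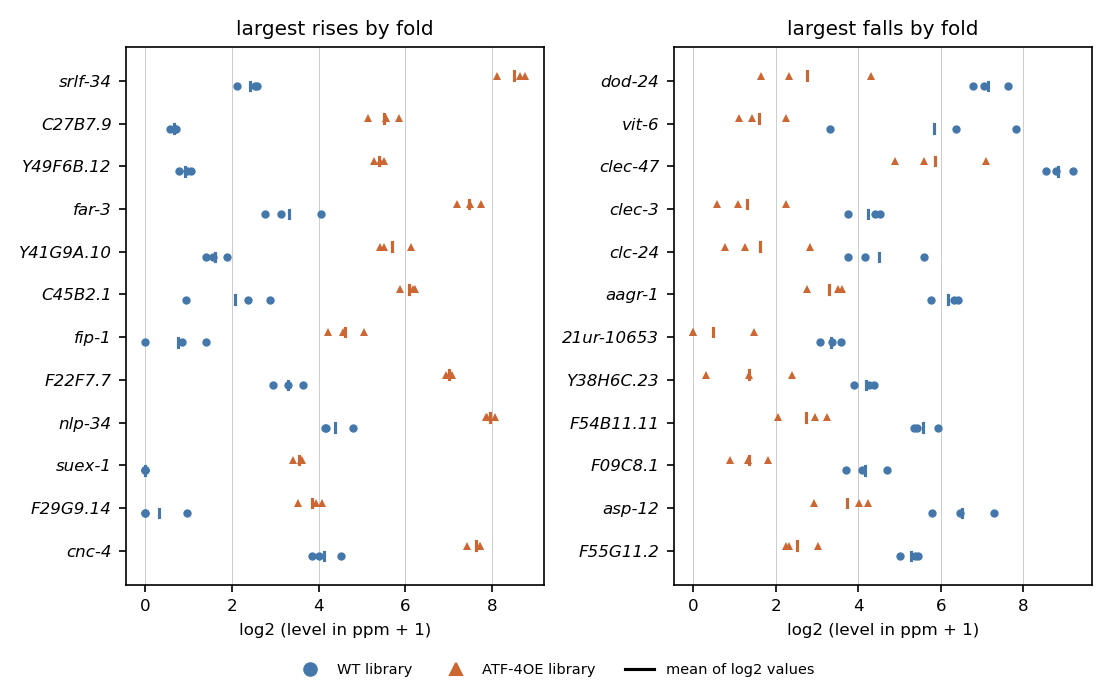
Log2 of the level in ppm plus 1 in each WT library (circles) and each ATF-4OE library (triangles), with the mean of the log2 values as a bar, for the 12 genes that rose and the 12 that fell the most in fold, taken from called genes without overlap between the groups. The WT libraries of *vit-6* spread from 9.02 to 226 ppm, while those of *srlf-34* stay between 3.36 and 4.97 ppm.

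The 10 genes with the largest gain in level included *far-1*, 4 cuticle collagen genes and a muscle actin gene. *far-1*, from the same family as *far-3*, was at 2616, 2460 and 2869 ppm in WT and 4435, 4316 and 4561 ppm in ATF-4OE (log2 fold change 0.75 ± 0.12 SE, adjusted p = 0.00291 by limma). The cuticle collagen genes *col-42*, *col-98* and *col-103* moved alike, with WT replicate 1 the highest of its group in each. *col-42* was at 812, 335 and 339 ppm in WT and 2067, 2217 and 2245 ppm in ATF-4OE, *col-98* at 597, 241 and 257 ppm in WT and 1414, 1452 and 1581 ppm in ATF-4OE and *col-103* at 611, 250.3 and 255 ppm in WT and 1395, 1310 and 1699 ppm in ATF-4OE. *ttr-15*, of the transthyretin-like family, was at 404, 266 and 267 ppm in WT and 1405, 1514 and 1376 ppm in ATF-4OE (log2 fold change 2.22 ± 0.28 SE, adjusted p = 0.00114 by limma). The muscle actin gene *act-4*, whose close copies can share reads with it, was at 1916, 1700 and 2121 ppm in WT and 2824, 2498 and 3227 ppm in ATF-4OE. *srlf-1*, *dao-2* and *col-166* had log2 fold changes of 0.80, 0.90 and 0.75, and *col-166* did not pass without ATF-4OE replicate 1 or 3 (adjusted p = 0.113 and 0.119).

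Among the 10 genes with the largest loss in level *C17F4.7* came first, at 6220, 4906 and 7086 ppm in WT and 2093, 3251 and 2964 ppm in ATF-4OE (log2 fold change -1.14 ± 0.28 SE, adjusted p = 0.0159 by limma). The cathepsin D-like protease gene *asp-1* followed, at 8463, 7678 and 9201 ppm in WT and 4057, 5261 and 6248 ppm in ATF-4OE, and then *dct-16*, a target of DAF-16 by its name, at 4465, 3388 and 4916 ppm in WT and 854, 1480 and 1268 ppm in ATF-4OE (log2 fold change -1.84 ± 0.27 SE, adjusted p = 0.00217 by limma). *ahcy-1* encodes the enzyme that removes S-adenosylhomocysteine, the product left by methyl transfer. It was at 5946, 5744 and 5271 ppm in WT and 3159, 3518 and 3674 ppm in ATF-4OE. *ilys-5*, which encodes a lysozyme of the invertebrate type, was at 1852, 1349 and 2372 ppm in WT and 169, 447 and 293 ppm in ATF-4OE (log2 fold change -2.68 ± 0.40 SE, adjusted p = 0.00217 by limma). ATF-4OE replicate 1 was the lowest library for each of these 5 genes. *spp-5*, a saposin-like gene whose product attacks bacterial membranes, was at 2575, 2102 and 3082 ppm in WT and 880.1, 1388 and 1300 ppm in ATF-4OE, and *act-5*, the actin of the microvilli of the gut, at 3093, 2548 and 2860 ppm in WT and 1315, 1741 and 1813 ppm in ATF-4OE. The log2 fold changes of the remaining genes of the 10 were -1.48 for *acdh-1* and -1.46 for *ech-6*, both of the propionate shunt, and -0.92 for *col-73*.

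**Figure D3:**
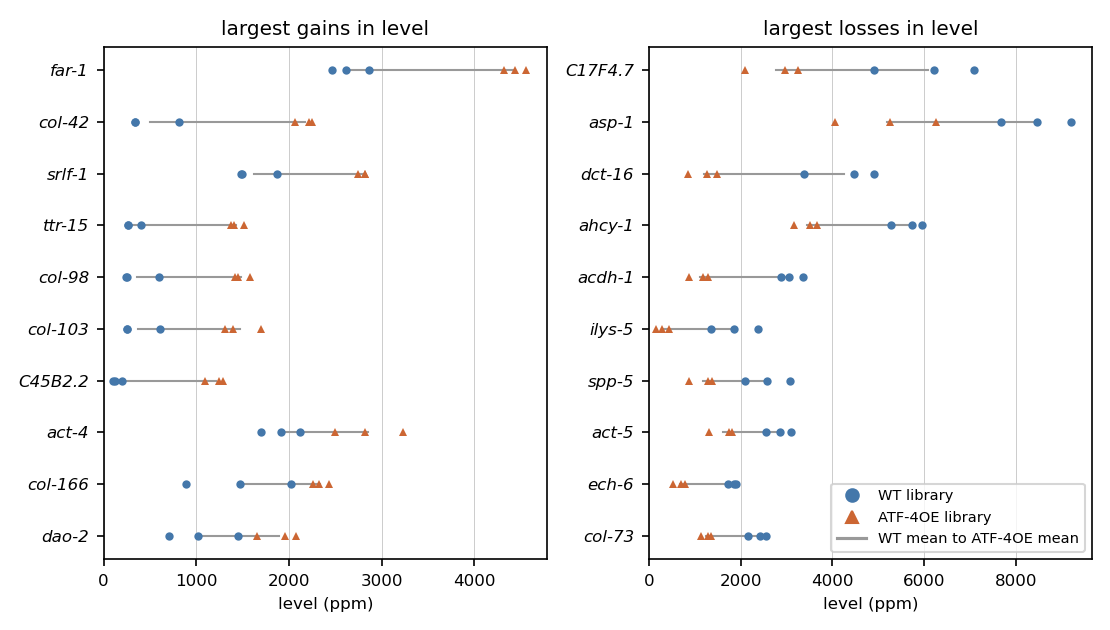
Level in ppm in each WT library (circles) and each ATF-4OE library (triangles) for the 10 genes per direction with the largest difference in mean level among genes that passed and whose libraries do not overlap. A line joins the group means, and the largest loss is that of *C17F4.7*, from a mean of 6071 ± 1098 to 2769 ± 603 ppm.

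Genes that were at or under 1 ppm in every library of 1 group and were called numbered 21 in the direction of a rise and 6 in that of a fall. A gene this low in 1 group could be tested only where a library of another group reached 5 ppm. The filter thus shaped both numbers, which only describe the genes listed here. Listed at 0 in every WT library were 7 of the genes that rose. Besides *suex-1* these were the peptide gene *cnc-7*, at 8.15, 9.74 and 6.51 ppm in ATF-4OE, the pseudogene WBGene00014686, the short non-coding gene *B0399.3* and the piRNA loci *21ur-14576*, *21ur-11219* and *21ur-2394*. The last 4 are short stretches inside the genes *kcnl-1*, *bus-19*, *Y57G11C.42* and *Y51H4A.8* on the same strand, and their reads cannot be told apart from RNA of those genes. Without ATF-4OE replicate 1, *21ur-14576* and *21ur-2394* did not pass (adjusted p = 0.108 and 0.158). Close to 0 in WT was also *nas-10*, a secreted metalloprotease gene, at 0.150, 0.0560 and 0.105 ppm in WT and 10.5, 7.65 and 9.38 ppm in ATF-4OE (log2 fold change 3.20 ± 0.35 SE, adjusted p = 0.000682 by limma). *W06H8.2* was at 0.967, 0.596 and 0.691 ppm in WT and 18.5, 15.5 and 20.9 ppm in ATF-4OE. In both genes the 3 ATF-4OE libraries were close to each other. Among the 6 genes that were near 0 in ATF-4OE were 2 neighbouring pseudogenes on chromosome II, WBGene00019587 at 4.11, 4.24 and 6.50 ppm in WT and 0.207, 0.270 and 0.327 ppm in ATF-4OE and WBGene00019588 at 3.43, 3.51 and 5.44 ppm in WT and 0.212, 0.469 and 0.559 ppm in ATF-4OE.

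Among families of secreted proteins the share that rose was 58.1% for transthyretin-like genes, 43.5% for astacins and 28.1% for hedgehog-related genes, against 22.1% of all genes. Transthyretin-like proteins are small secreted proteins, few of them with a known function, and 25 of 43 tested members rose and 4 fell (median log2 fold change 0.71, against 0.01 for all genes). *ttr-7* was at 6.27, 3.52 and 3.82 ppm in WT and 56.8, 44.8 and 44.3 ppm in ATF-4OE (log2 fold change 3.19 ± 0.21 SE, adjusted p = 6.7e-05 by limma), and *ttr-33*, which overlaps *txt-5* on the same strand and *mig-6* on the other, at 21.4, 28.5 and 14.4 ppm in WT and 133, 122 and 114 ppm in ATF-4OE. *ttr-26* rose from 10 ± 2.41 to 53.1 ± 9.30 ppm and *ttr-59* from 22 ± 5.62 to 98.1 ± 7.05 ppm. The groups did not overlap in these 4 genes. Without WT replicate 3, ATF-4OE replicate 1 or ATF-4OE replicate 3 the members that fell numbered 2. Of the 7 genes for fatty acid and retinol binding proteins 4 rose and none fell, among them *far-7*, at 7.91, 11.6 and 7.0 ppm in WT and 24.1, 22.2 and 30.9 ppm in ATF-4OE. The fourth, *far-6*, had a log2 fold change of 0.39 and did not pass with the block (adjusted p = 0.109) or without any 1 library other than WT replicate 3.

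Of 23 astacin genes, which encode secreted metalloproteases, 10 rose and none fell (median 0.76), and 16 rose without WT replicate 2. *nas-9* was at 5.44, 4.09 and 2.34 ppm in WT and 23.7, 18.6 and 24.1 ppm in ATF-4OE (log2 fold change 2.26 ± 0.25 SE, adjusted p = 0.00068 by limma), and *nas-3* at 1.49, 1.72 and 2.01 ppm in WT and 11.8, 14.7 and 9.41 ppm in ATF-4OE. Both were low in WT and at least several times higher in each ATF-4OE library. Among 32 genes related to hedgehog, which in the worm are secreted by the skin and other epithelia, 9 rose and none fell (median 0.28). The 28.1% that rose was near the 22.1% of all genes, and 1 member fell with the replicate as a block. *grl-21* was at 35.5, 40.3 and 20.4 ppm in WT and 207, 195 and 180.4 ppm in ATF-4OE (log2 fold change 2.61 ± 0.25 SE, adjusted p = 0.000364 by limma). *grl-4* was at 77.3, 185 and 64.8 ppm in WT and 355, 303 and 344 ppm in ATF-4OE, with WT replicate 2 well above the other WT libraries. Of 25 patched-related genes, for membrane proteins like the hedgehog receptor, 10 rose and 2 fell (median 0.63). *ptr-8* rose from 14.9 ± 3.43 to 62.9 ± 12.9 ppm, and *ptr-24* fell from 31 ± 6.25 to 12 ± 1.49 ppm. The hedgehog-related count was 4 without WT replicate 3 or ATF-4OE replicate 1 and 5 without ATF-4OE replicate 3, and the count of patched-related genes that rose was 3, 3 and 5 without the same libraries. Of all genes 1749, 1530 and 1903 rose in these fits, against 2488 with every library.

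**Figure D4:**
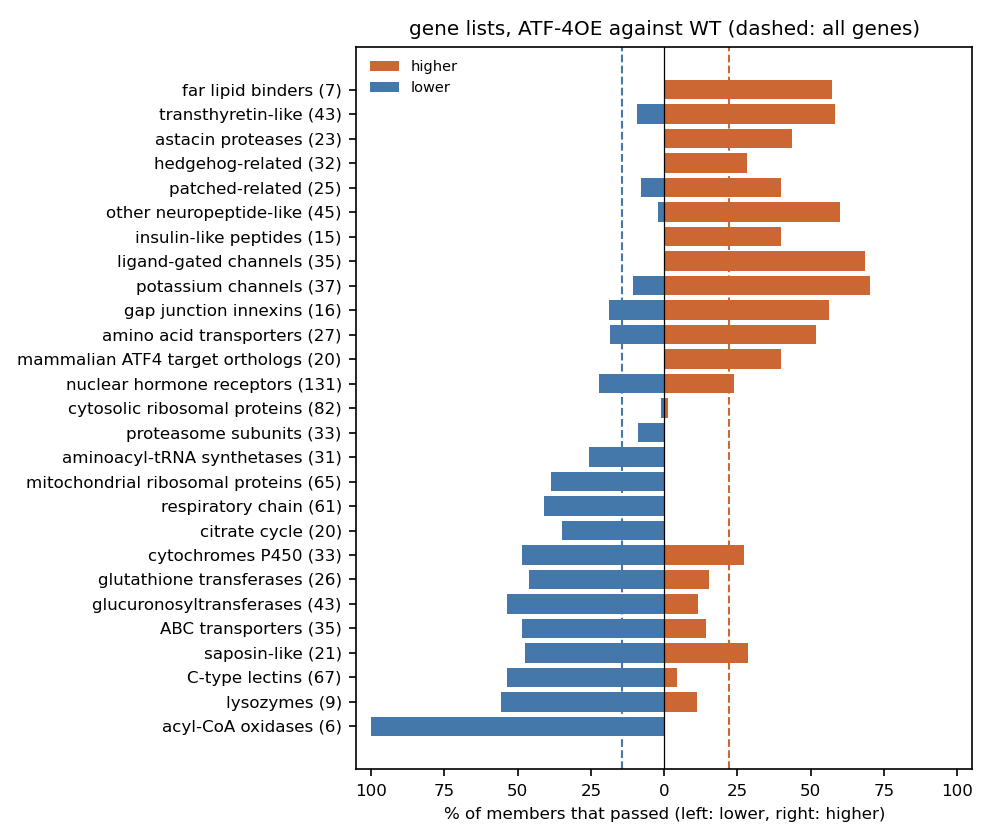
Percent of the tested members of each gene list that passed the test as higher (to the right) or lower (to the left) in ATF-4OE, with the number of members tested in brackets and dashed lines at the 22.1 and 14.4% of all genes. Acyl-CoA oxidases reach 100% lower with 6 of 6 members, and cytosolic ribosomal proteins stay near 0 on both sides.

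Neuropeptide and channel families had larger shares of members that rose than all genes had, of which 22.1% rose and 14.4% fell. The neuron marker list moved with them, with 20 of 22 members higher and none lower (median 0.95) and summed levels of 649 to 748 ppm in WT and 1037 to 1274 ppm in ATF-4OE, and its part in these results was not tested. Of 45 neuropeptide-like genes other than the peptides of the skin 27 rose and 1 fell (median 0.88), and none fell with the replicate as a block. *nlp-11* was at 18.6, 21.7 and 17.6 ppm in WT and 48.1, 44.3 and 48.4 ppm in ATF-4OE (log2 fold change 1.24 ± 0.11 SE, adjusted p = 0.00032 by limma), *nlp-55* at 28, 31.3 and 30.8 ppm in WT and 70.7, 68.9 and 64.8 ppm in ATF-4OE, and *nlp-13* rose from 39.6 ± 1.41 to 89.8 ± 2.08 ppm. The WT libraries were tight for these peptides. Of 15 insulin-like peptide genes 6 rose and none fell (median 0.68). *ins-35* was at 14.2, 12.2 and 9.92 ppm in WT and 50.1, 51.3 and 38 ppm in ATF-4OE (log2 fold change 1.85 ± 0.19 SE, adjusted p = 0.0005 by limma), and *ins-18*, which encodes an antagonist of the insulin receptor DAF-2, rose from 18.5 ± 2.43 to 34.1 ± 2.29 ppm.

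Ligand-gated channels, the receptors of synapses, had 24 of 35 members higher (68.6%) and none lower (median 0.70). Beside this family and those that follow, 22.1% of all genes rose and 14.4% fell. The list was made from gene names and holds *exp-2*, a potassium channel. *lgc-35*, a cation channel opened by GABA, was at 3.95, 4.31 and 4.25 ppm in WT and 12.3, 10.6 and 11.7 ppm in ATF-4OE (log2 fold change 1.27 ± 0.16 SE, adjusted p = 0.00112 by limma). *unc-49*, the GABA receptor of body wall muscle, was at 16.4, 15.3 and 15.2 ppm in WT and 31.9, 26.9 and 32.9 ppm in ATF-4OE, and the acetylcholine receptor subunit gene *lev-1* rose from 6.74 ± 0.321 to 11.9 ± 0.596 ppm. Of 37 potassium channel genes 26 rose and 4 fell (median 0.67), with *twk-18*, a channel of muscle, at 14.6, 13.2 and 13.5 ppm in WT and 29.8, 24 and 25.8 ppm in ATF-4OE. The first count was 13 without ATF-4OE replicate 1, and the second 2 without that library or without WT replicate 3. Of all genes 1530 rose without ATF-4OE replicate 1, against 2488 with every library. Of 16 innexin genes, which form gap junctions, 9 rose and 3 fell. *unc-9*, which couples muscle cells and neurons, rose from 15.9 ± 0.783 to 30.4 ± 4.19 ppm, while *inx-17* fell from 39.1 ± 4.21 to 22 ± 2.58 ppm. The homeobox gene *unc-30*, which sets the identity of a class of GABA motor neurons, was at 0.874, 1.07 and 0.561 ppm in WT and 6.94, 4.6 and 5.86 ppm in ATF-4OE (log2 fold change 1.89 ± 0.31 SE, adjusted p = 0.00327 by limma). The Hox gene *mab-5* was at 7.29, 8.19 and 7.36 ppm in WT and 25.9, 20.9 and 22.6 ppm in ATF-4OE. These 2 were among 16 homeobox genes that rose, of 38 tested, while 2 fell (9 rose and 1 fell without ATF-4OE replicate 1). That list, made from gene names, also holds *lim-9*, which is no homeobox gene.

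In the following families of defence and detoxification genes more members fell than rose, while of all genes 14.4% fell and 22.1% rose. The intestine marker list moved with them, with 8 of 14 members lower and none higher (median -0.58), 13 lower without ATF-4OE replicate 3, and summed levels of 4722 to 5270 ppm in WT and 2619 to 3499 ppm in ATF-4OE. Its part in these results was not tested. Of 67 C-type lectin genes 36 fell and 3 rose (median -0.93), and 23 fell without ATF-4OE replicate 1. *clec-265* was at 54.9, 45.6 and 51.2 ppm in WT and 13.7, 16.7 and 17.6 ppm in ATF-4OE (log2 fold change -1.60 ± 0.18 SE, adjusted p = 0.0008 by limma). The exceptions were led by *clec-1*, at 117, 111 and 122 ppm in WT and 279, 329 and 267 ppm in ATF-4OE, and *clec-146*, at 6.28, 4.68 and 4.74 ppm in WT and 41.7, 30.9 and 36.8 ppm in ATF-4OE. For both, each ATF-4OE library was above each WT library, against the trend of the family. Of 9 lysozyme genes 5 fell and 1 rose (median -0.64; none rose without WT replicate 1, WT replicate 3 or ATF-4OE replicate 1), including *lys-6*, at 14.8, 17.2 and 26.9 ppm in WT and 2.27, 4.96 and 4.79 ppm in ATF-4OE. Of 21 saposin-like genes 10 fell (47.6%) and 6 rose (28.6%, near the 22.1% of all genes). The first count was 6 without WT replicate 3 or ATF-4OE replicate 1. *spp-4* was at 124, 147 and 161 ppm in WT and 26.3, 41.8 and 36.9 ppm in ATF-4OE (log2 fold change -2.03 ± 0.17 SE, adjusted p = 0.00023 by limma).

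Glucuronosyltransferases attach a sugar acid to drugs and hormones, and 23 of 43 fell while 5 rose (median -0.46). The 5 became 3 with the replicate as a block and 2 without WT replicate 3, ATF-4OE replicate 1 or ATF-4OE replicate 3. *ugt-46* was at 113, 102 and 118.9 ppm in WT and 46.1, 54.3 and 50.8 ppm in ATF-4OE (log2 fold change -1.13 ± 0.12 SE, adjusted p = 0.000702 by limma). Of 26 glutathione transferase genes 12 fell and 4 rose. The first count was 7 without WT replicate 1 or 3, and the second was 2 without ATF-4OE replicate 1. *gst-28* was at 53.8, 37.3 and 50.7 ppm in WT and 14.7, 18.4 and 15.2 ppm in ATF-4OE, and *gst-13* fell from 167 ± 15.4 to 74.8 ± 7.43 ppm. Of 33 cytochrome P450 genes 16 fell (48.5%, against 14.4% of all genes) and 9 rose (27.3%, near the 22.1% of all genes). The first count was 9 without WT replicate 3. Highest in fold was *cyp-32A1*, at 1.84, 1.95 and 1.36 ppm in WT and 21.8, 16.5 and 20.9 ppm in ATF-4OE (log2 fold change 2.93 ± 0.21 SE, adjusted p = 8.26e-05 by limma). Its 3 ATF-4OE libraries were all many times the WT libraries.

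Transporters of the membrane differed by family, beside 22.1% of all genes that rose and 14.4% that fell. Of 35 ABC transporter genes 17 fell and 5 rose (median -0.30). *pmp-5* was at 206, 237 and 250.2 ppm in WT and 50.5, 77.5 and 68.4 ppm in ATF-4OE (log2 fold change -1.82 ± 0.15 SE, adjusted p = 0.000218 by limma). *haf-9* and *haf-4*, whose products work in the gut granules, fell alike. *haf-9* was at 224, 217 and 233 ppm in WT and 101.4, 114 and 123.2 ppm in ATF-4OE, and *haf-4* at 232, 205 and 215 ppm in WT and 100.8, 114.7 and 129 ppm in ATF-4OE. Of 27 genes for amino acid, peptide and neurotransmitter carriers 14 rose and 5 fell. *aat-7* was at 3.67, 3.47 and 3.58 ppm in WT and 17.5, 19.3 and 21.8 ppm in ATF-4OE (log2 fold change 2.16 ± 0.18 SE, adjusted p = 0.000185 by limma), and *aat-8* at 3.10, 3.34 and 6.58 ppm in WT and 22.6, 28.9 and 30.9 ppm in ATF-4OE. Both are amino acid transporter genes, low in WT and several times higher in each ATF-4OE library. Among 9 aquaporin genes 3 rose and 3 fell (33.3% each). *aqp-2* was at 135, 121 and 110.0 ppm in WT and 315, 250.1 and 307 ppm in ATF-4OE, and *aqp-1* at 40.8, 52.8 and 44.2 ppm in WT and 18.2, 20.8 and 19 ppm in ATF-4OE.

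Nuclear hormone receptors, a large family of transcription factors in the worm, had 31 of 131 members higher (23.7%, close to the 22.1% of all genes) and 29 lower (22.1%, against 14.4%), with a median of 0.03. The 4 with the smallest adjusted p all fell. *nhr-114*, which takes part in the response of the gut to vitamin B12 and methionine supply, was at 474, 425 and 454 ppm in WT and 149.8, 173 and 184 ppm in ATF-4OE (log2 fold change -1.41 ± 0.10 SE, adjusted p = 8.26e-05 by limma). *nhr-68*, which turns on the propionate shunt, was at 114.9, 120.4 and 127 ppm in WT and 59.0, 72.9 and 65.6 ppm in ATF-4OE. *nhr-121* fell from 20.9 ± 0.541 to 8.59 ± 1.07 ppm and *nhr-156* from 16.1 ± 2.29 to 5.46 ± 0.634 ppm. Without ATF-4OE replicate 1 the number of lower receptors was 18.

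Of 20 measured orthologs of genes that ATF4 turns on in mammals 8 rose (40%, against 22.1% of all genes) and none fell, with a median of 0.07. *F22F7.7*, described above, is not counted among them. Another 10 of the 30 names on that list had no match in the sheet. The galectin genes *lec-4*, *lec-2* and *lec-5*, which encode lectins that bind galactose sugars, were among the 8, with log2 fold changes of 1.58, 0.85 and 0.68. The paper names these galectins where it matches ATF4 target orthologs with its most upregulated genes, from these same data. Members of the list were chosen with earlier results of these data known, so the 40% only describes the list. Of all 12 galectin genes 5 rose and 3 fell (median -0.12). Those that fell numbered 0 without ATF-4OE replicate 1 and 1 without WT replicate 3 or ATF-4OE replicate 3. *lec-4* was at 128, 92.8 and 98.2 ppm in WT and 331, 323 and 297 ppm in ATF-4OE. The transcription factor gene *cebp-1* was at 41.2, 46.2 and 37.2 ppm in WT and 79, 67.4 and 91.3 ppm in ATF-4OE (log2 fold change 0.91 ± 0.14 SE, adjusted p = 0.00258 by limma). The groups did not overlap in these genes. Of 31 genes for aminoacyl-tRNA synthetases none rose and 8 fell (25.8%, against 14.4% of all genes, median -0.16). Cytosolic forms are targets of ATF4 in mammals, but the 31 hold cytosolic and mitochondrial forms, which were not counted apart. *tars-1*, for the threonine enzyme, was at 178, 166 and 172 ppm in WT and 138, 119.9 and 132 ppm in ATF-4OE (log2 fold change -0.40 ± 0.09 SE, adjusted p = 0.0113 by limma). The 8 became 4 with the replicate as a block, and between 2 and 4 without any 1 library, with 1 higher without ATF-4OE replicate 2. Of all genes 1010 to 1504 fell without any 1 library, against 1629 with every library.

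Few genes of the translation machinery passed the test in either direction. Of 82 genes for cytosolic ribosomal proteins 1 rose and 1 fell, and the median was 0.04. They held a summed level of 211198 to 222875 ppm in WT and 212850 to 234454 ppm in ATF-4OE. *rpl-11.1* had a log2 fold change of -0.64 and *rpl-25.1* one of 0.21, and neither passed when any 1 library was left out. Of 33 proteasome genes 3 fell. The number was 0 with the replicate as a block and at most 1 without any 1 library other than ATF-4OE replicate 2, and it was 12 with the libraries scaled by median ratios. Of 40 translation factor genes 1 rose and 2 fell, and none passed without WT replicate 3, ATF-4OE replicate 1 or ATF-4OE replicate 3.

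Mitochondrial genes of the nucleus were lower by small amounts. Of 65 genes for mitochondrial ribosomal proteins 25 fell (38.5%, against 14.4% of all genes) and none rose (median -0.21). Of 61 genes of the respiratory chain 25 fell (41.0%) and none rose (median -0.23). None of them was called with the fold limit. *mrpl-44*, which overlaps *mccc-2* on the same strand, was at 135, 122 and 139.7 ppm in WT and 84.6, 92.4 and 90.4 ppm in ATF-4OE (log2 fold change -0.56 ± 0.10 SE, adjusted p = 0.00446 by limma). The complex I gene *nduf-9* was at 214, 204 and 207 ppm in WT and 168, 166 and 170.3 ppm in ATF-4OE, and *nuo-2* fell from 144 ± 6.48 to 114.6 ± 4.59 ppm. Of 20 genes of the citrate cycle 7 fell (35%) and none rose. With the replicate as a block these counts were 16, 13 and 4. The first was 7 without ATF-4OE replicate 3, 8 without WT replicate 2 and 15 without WT replicate 1 or ATF-4OE replicate 1. The second was 6 without WT replicate 3 or ATF-4OE replicate 1, 11 without WT replicate 1 and 16 without WT replicate 2 or ATF-4OE replicate 3. The third was 3 without WT replicate 1 and 4 without WT replicate 3, ATF-4OE replicate 1 or ATF-4OE replicate 2. Of all genes 1629 fell in the main fit and 1359 with the block. Without WT replicates 1, 2 and 3 the number was 1203, 1504 and 1010. Without ATF-4OE replicates 1, 2 and 3 it was 1021, 1421 and 1232. The lowest counts of the first 2 lists were near the share of all genes in the same fits.

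Acyl-CoA oxidases start the breakdown of fatty acids in peroxisomes and shorten the side chains of pheromones in the worm. All 6 measured members fell (median -0.97), against 14.4% of all genes. Past the fold limit were 3 of the 6, against 2.96% of all genes. *acox-1.5* was at 26.3, 41.6 and 24.2 ppm in WT and 12.8, 8.73 and 10.1 ppm in ATF-4OE (log2 fold change -1.43 ± 0.21 SE, adjusted p = 0.0021 by limma). *acox-1.2* was at 302, 234 and 331 ppm in WT and 139, 111 and 148 ppm in ATF-4OE, and *acox-3* at 53.7, 50.8 and 55.9 ppm in WT and 29.6, 29.4 and 29.6 ppm in ATF-4OE. In each of these genes the ATF-4OE libraries lay below the WT libraries.

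Markers of sperm, yolk and the adult cuticle, which rise in wild type as L4 animals near adulthood, differed between libraries of the same group. Vitellogenin genes summed to 118, 15.3 and 343 ppm in WT replicates 1, 2 and 3 and to 3.46, 5.85 and 9.67 ppm in ATF-4OE. Major sperm protein genes summed to 30.1, 3.26 and 196 ppm in WT and to 3.26, 28.7 and 15.8 ppm in ATF-4OE. WT replicate 3 was highest and WT replicate 2 lowest in both lists. Among 35 other sperm genes 1 fell (median -0.94), and none with the replicate as a block, and among 22 major sperm protein genes none passed (limma; median -0.81). Of the 4 vitellogenin genes *vit-6* and *vit-1* fell, and neither passed with the block (adjusted p = 0.117 and 0.132) or without any 1 library other than WT replicate 2. Germline genes summed to 306, 275 and 308 ppm in WT and to 180, 183 and 192 ppm in ATF-4OE, sums that did not overlap between the groups. Of 25 of them (median -0.62) 1, the recombinase gene *rad-51*, fell in the fit of 9 libraries, 2 fell without WT replicate 2, and 17 fell in a fit of the 6 libraries alone. Oocyte genes summed to 75.1 to 90.2 ppm in WT and 64.2 to 83.1 ppm in ATF-4OE, and none of 9 passed.

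A group of genes with large differences that did not pass showed the same order of libraries. With a log2 fold change beyond 2.5 in size and an adjusted p of at least 0.1 there were 20 genes, chosen after their values were seen, and all 20 were lower in ATF-4OE. Of the 20, 10 carried names of cuticle genes (*col*, *bli* and *rol*). *col-138* was at 820.0, 26.6 and 1428 ppm in WT and 4.68, 70.6 and 46.3 ppm in ATF-4OE (log2 fold change -3.57, limma adjusted p = 0.231). *bli-1*, a collagen of the struts of the adult cuticle, was at 279.6, 18.2 and 217 ppm in WT and 3.71, 19.7 and 22.6 ppm in ATF-4OE, and *rol-1* at 365, 11.9 and 728 ppm in WT and 2.29, 31.7 and 20.5 ppm in ATF-4OE. WT replicate 2 was the lowest WT library in 20 of the 20 genes and ATF-4OE replicate 1 the lowest ATF-4OE library in 20, and WT replicate 3 was the highest WT library in 17. In 19 of the 20 the groups overlapped. The part of such differences between libraries in the other results was not tested.

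**Figure D5:**
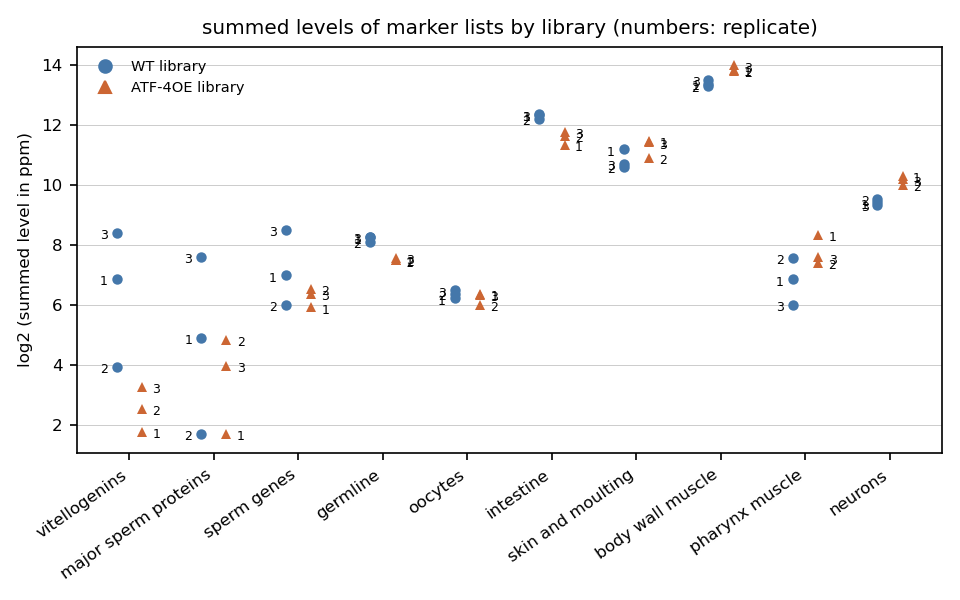
Log2 of the summed level in ppm of each marker list in the WT libraries (circles) and the ATF-4OE libraries (triangles), numbered by replicate. Vitellogenins span 15.3 to 343 ppm among WT libraries, whereas germline, intestine, body wall muscle and neuron lists keep the groups apart.

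Pharyngeal muscle genes had 5 of 9 members higher and none lower (median 0.97). *tnt-4*, a troponin T gene, was at 12.4, 15.4 and 6.11 ppm in WT and 56.6, 26 and 34.2 ppm in ATF-4OE (log2 fold change 1.71 ± 0.36 SE, adjusted p = 0.00921 by limma). The 5 became 3 with the replicate as a block, 2 without WT replicate 1, 1 without WT replicate 3 or ATF-4OE replicate 1 and 3 without ATF-4OE replicate 3. The basement membrane list had 5 of 18 members higher (27.8%, against 22.1% of all genes) and 1 lower. *ost-1*, which encodes the matrix protein SPARC, was at 634, 609 and 689.9 ppm in WT and 1000.2, 928 and 1029 ppm in ATF-4OE (log2 fold change 0.61 ± 0.09 SE, adjusted p = 0.00173 by limma), and *nid-1*, which encodes nidogen, fell from 79.9 ± 6.30 to 49.7 ± 5.36 ppm. The 5 became 2 without WT replicate 3, ATF-4OE replicate 1 or ATF-4OE replicate 3 and 10 without ATF-4OE replicate 2.

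Genes called in the same direction lay next to each other in 29 places. Counting only tested genes as neighbours, 96 genes fell into such runs of 3 to 6, 73 of them higher in 22 runs and 23 lower in 7 runs. Neighbours of 1 family can share sequence, and how the counting treated reads that match several copies is not given in the sources used here. The longest run held the 6 skin peptide genes *nlp-34*, *nlp-31*, *nlp-30*, *nlp-29*, *nlp-28* and *nlp-27* at chromosome V 3978825 to 3989770. On the X chromosome at 6082960 to 6088412 stood *C45B2.3*, *C45B2.2*, *C45B2.1* and *C45B2.8*, all on the same strand. *C45B2.2* was at 197, 120.4 and 105.4 ppm in WT and 1248, 1288 and 1096 ppm in ATF-4OE (log2 fold change 3.14 ± 0.22 SE, adjusted p = 8.24e-05 by limma), and *C45B2.1* at 4.13, 0.929 and 6.35 ppm in WT and 57.9, 73.4 and 71.3 ppm in ATF-4OE. *C45B2.3* and *C45B2.8* were at most 2.85 ppm in WT and at least 6.66 ppm in ATF-4OE. All 4 genes thus rose from very different levels.

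Other runs that rose held the fungus-induced genes *fipr-4*, *fipr-7* and *fipr-6* (*fipr-4* with an adjusted p of 0.112 without ATF-4OE replicate 1), the transthyretin-like genes *ttr-27*, *ttr-28* and *ttr-29*, and *T20D4.12*, *T20D4.11*, *T20D4.10* and *T20D4.7* with *C04E12.2*, which overlaps *C04E12.4* on the same strand. *T20D4.12* was at 4.36, 9.30 and 3.82 ppm in WT and 26.8, 28.4 and 16.3 ppm in ATF-4OE. The glutathione peroxidase genes *gpx-5* and *gpx-3* stood beside the globin gene *glb-17* on the X chromosome, and *gpx-5* rose from 39.8 ± 4.43 to 89.7 ± 4.68 ppm, while *gpx-3* did not pass without WT replicate 3 or ATF-4OE replicate 3 (adjusted p = 0.155 and 0.116). Among the runs that fell, *dod-24*, *F55G11.8*, *dod-22* and *F55G11.2* stood at chromosome IV 12940106 to 12969289. *dod-22* did not pass without WT replicate 3 or ATF-4OE replicate 1 (adjusted p = 0.103 and 0.115). The infection response gene *irg-8* stood with *Y39D8A.1* and *M02H5.8* on chromosome V. *irg-8* was at 1620, 1247 and 1693 ppm in WT and 347, 535 and 514 ppm in ATF-4OE (log2 fold change -1.72 ± 0.31 SE, adjusted p = 0.00481 by limma), and *M02H5.8* did not pass with the block (adjusted p = 0.108), nor without WT replicate 1 or 3 (0.169 and 0.195) or ATF-4OE replicate 1 or 3 (0.214 and 0.152). The saposin-like genes *spp-2*, *spp-4* and *spp-5* made up a further run, at X 7315995 to 7320354. The next tested genes on the chromosome, *sng-1*, *ttr-59* and *ttr-30* at 7327601 to 7331903, made up a run that rose.

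The X chromosome had the largest share of genes that rose, 489 of 1597 (30.6%), and a median log2 fold change of 0.20. On the autosomes the share was 17.3 to 26.5% and the median -0.03 to 0.05. Chromosome V had the largest shares of called genes, with 9.03% higher and 5.17% lower, against 1.12 to 3.47% lower on the other autosomes. Members of 1 family often lie together, so these genes are not independent, and no test was made of the shares. Of the 14 genes on mitochondrial DNA 2 rose and 1 fell (14.3 and 7.14%, against 22.1 and 14.4% of all genes).

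The transgene holds the 3′ end of *unc-54*, at chromosome I 14855901 to 14863482, and reads of that end cannot be told apart from those of the gene itself. *unc-54* was at 834, 620.0 and 669 ppm in WT and 1149, 872 and 1605 ppm in ATF-4OE (log2 fold change 0.74 ± 0.22 SE, adjusted p = 0.0366 by limma). Its neighbour *aex-5*, at 14850052 to 14855827 on the same strand, was at 47.6, 42.2 and 55.4 ppm in WT and 71.9, 69.6 and 118 ppm in ATF-4OE (log2 fold change 0.79 ± 0.24 SE, adjusted p = 0.0397 by limma). ATF-4OE replicate 3 was the highest library for both. The body wall muscle list also moved up, with 18 of 26 members higher (69.2%, against 22.1% of all genes) and none lower (median 0.46). Its summed levels were 10075 to 11690 ppm in WT and 14272 to 16273 ppm in ATF-4OE. Its part in the rise of *unc-54* was not tested. *unc-54* did not pass without WT replicate 3 or ATF-4OE replicate 3 (adjusted p = 0.105 and 0.109), nor *aex-5* without WT replicate 2 or ATF-4OE replicate 3 (0.101 and 0.12).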

How the data were processed

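RNA was sequenced from 9 samples of L4 animals, 3 per strain. According to the methods, the authors aligned single reads to WBcel235 with STAR 2.4.0j, counted them with featureCounts and scaled the counts to RPKM. The deposited RPKM sheet lists 46748 genes. In a second deposited sheet, of 14218 genes, the authors centred and scaled each library, so that its values are a score on a linear scale. Its column names set the groups. The deposited sheet of term enrichment holds the authors' own p-values and was not used. Strand of counting is not given in the sources used here.

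Each column of scores was shifted by its minimum and scaled to a sum of 1000000, which is a multiple of RPKM within the library. Depth was estimated as the read number that made most low RPKM values whole within 0.02 reads (41.0 to 50.2% of them for the 6 libraries), too few to recover counts. The methods name a count test, but the values hold no counts, so limma 3.58.1 in R 4.3.3 (trend, moderated test, Benjamini-Hochberg) was fitted to log2(level + 1) of the 11287 genes that reached 5 ppm in any library. Fold changes are on that scale and understate the change of low genes. The fit used all 9 libraries without a block, and was tested on simulated data. The 7 genes left out of the text, 6 of them tested, were *atf-4*, *rol-6* and neighbours, and *atf-4* is not reported here.

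All strains of a replicate were cultured side by side, so the numbers pair the samples. Deviations of same-numbered WT and ATF-4OE libraries from their group means nevertheless correlated at -0.01, -0.28 and 0.18. Samples are separate cultures. Members, gene lists (68) and rules were chosen with earlier results of these data known. Genes are named where they were among the 12 largest by fold or 10 by level per direction (called or passed, without overlap between groups), the 4 smallest adjusted p of a list, *unc-54* and its neighbours within 5 kb, members of runs of at least 3 called neighbours, or at most 1 ppm in every library of 1 group and called. Names and coordinates are from Ensembl release 115 (WBcel235), which held 14092 of the 14218 genes. Python 3.11.15 was used for the rest.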

Additional observations from a re-analysis of the deposited data

How the results depend on the processing

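With a pseudocount of 4 in place of 1, 366 genes were called higher and 205 lower, which follows from the smaller fold changes it gives to low genes. Leaving out 1 library at a time gave 1530 to 2582 genes higher, 1010 to 1504 lower, 519 to 919 called higher and 220 to 445 called lower. With the names of the RPKM sheet all 4 counts were 0. With the replicate block the counts were 2213 and 1359, with 655 and 316 called. The other alternatives (a pseudocount of 0.25, 2 other filters on low values, median ratio scaling, the 6 libraries alone without or with the replicate block, library weights, no trend) left each count within 1.5 times. Named genes were followed under the alternatives other than the names of the RPKM sheet. No named gene that passed in the main fit or in the alternative changed direction between them. Of the 390 named genes 356 passed, and 46 of these did not pass in at least 1 alternative. Under the stricter filter 351 of the 390 could be tested. Of the 44 genes with the largest changes in fold or level, *vit-6* and *col-166* were among the 46. With the block in the fit of 9 libraries, 15 named genes that had passed no longer passed. For the genes and lists described such changes are given with them. With 3 libraries per group an exact permutation test of 1 gene cannot go below p = 0.1, so every call rests on the spread pooled across genes. Median ratio scaling moved the median of all genes to -0.04 and the share of lower genes among those that passed from 39.6 to 46.2%.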

Other observations

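The following families were picked after their values were seen and get no test of their own. Globins bind oxygen and other small ligands through haem. Of 19 globin genes tested, of 30 in the sheet, 17 were higher in ATF-4OE at a limma adjusted p under 0.1, 7 of them called, and none lower (median log2 fold change 0.89). *glb-17* was at 8.58, 7.47 and 6.87 ppm in WT and 34.8, 30.3 and 32.4 ppm in ATF-4OE, and *glb-30* at 1.56, 0.875 and 0.763 ppm in WT and 5.87, 5.92 and 4.79 ppm in ATF-4OE. In both genes each ATF-4OE library lay above each WT library.

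Peroxins build peroxisomes and import their enzymes. Of 11 measured, 9 were lower and none higher, none of them by the fold limit (median -0.51), with *prx-3* at 34.6, 34.8 and 41.6 ppm in WT and 19.7, 24.4 and 17.2 ppm in ATF-4OE. Enoyl-CoA hydratases act on fatty acids in peroxisomes and mitochondria, and 8 of 9 were lower (median -0.75), *ech-3* from 26.8 ± 4.26 to 15 ± 0.876 ppm (SD, n = 3). Of 11 neuropeptide receptor genes 8 were higher, and of 25 carboxylesterase genes 14 were lower and 5 higher. Against these families stand 2488 higher and 1629 lower of all 11281 genes.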
